A study of Mus musculus with 19 samples.

Results

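The subject is the small intestine library of a mouse RNA-Seq survey of 7 tissues, read against the libraries of the other 6 tissues. It was chosen by its tissue label and is 1 of 7 tissue samples and 1 of 19 samples in the series. Each of the 7 tissues (small intestine, liver, white adipose, brown adipose, heart, tibialis anterior muscle and brain) is represented by 1 sample from C57BL/6J wild-type mice on chow diet without treatment. The other 12 samples are inguinal white and brown fat of wild-type and MCK-Musclin mice (Musclin driven by the muscle creatine kinase promoter) kept at 8 °C for 1 week, and only the wild-type ones enter here, as a gauge of spread between libraries. The labels do not give age, do not say which stretch of the intestine was taken, whether content or pancreas was removed, or whether the 7 tissues came from 1 animal. RNA of white adipose was isolated with a commercial kit and that of the other 6 tissues with TRIzol. The Y-linked gene Eif2s3y had 32.4 FPKM in small intestine and between 21.4 and 33.6 in the others, and Xist is listed at 0 in all 7, which matches the male mice of the series title.

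The small intestine is lined by a single layer of epithelial cells that is renewed from stem cells in the crypts. Most of these cells become enterocytes, which carry a brush border of microvilli with digestive enzymes and nutrient transporters, while goblet, Paneth, enteroendocrine and tuft cells secrete mucus, antimicrobial proteins, hormones and signals. Beneath the epithelium lie plasma cells that make IgA, other immune cells, vessels, nerves and layers of smooth muscle, and a bulk library holds RNA of all of them.

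The marker genes set for the tissue matched its label. Vil1 (ENSMUSG00000026175, chr1:74409376-74435559, plus strand of GRCm38), which encodes villin, the actin-bundling protein of microvilli, had 443 FPKM (fragments scaled to exon length and to the mapped fragments of the library) in small intestine, 0.631 in brain, 0.127 in white adipose, 0.0665 in heart and 0.0175 in liver, and is listed at 0 in brown adipose and tibialis anterior. Fabp2 (ENSMUSG00000023057, chr3:122895072-122899506, plus strand of GRCm38), the intestinal fatty acid binding protein, had 988 in small intestine, 38.94 in liver and 0.126 in white adipose, with the other 4 tissues listed at 0. Apoa4 (ENSMUSG00000032080, chr9:46240696-46243459, plus strand of GRCm38), an apolipoprotein of chylomicrons, had 2406 in small intestine and 53.8 in liver, and under 1 in the other 5. All 3 were highest in small intestine, with liver next for Fabp2 and Apoa4 and no other tissue above 1 FPKM for Vil1. On log2(FPKM + 1) the difference from the next tissue was 8.09 for Vil1, 4.63 for Fabp2 and 5.46 for Apoa4.

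Genes were compared on log2(FPKM + 1), a scale that understates differences of genes with low values, over the 14692 genes with a mean of at least 1 FPKM across the 7 tissues. A gene was called highest in small intestine where its value lay at least 2 above that of the next tissue, a 4-fold difference on this scale. This held for 820 genes (percent called 5.58), against 1161 in brain, 434 in liver, 168 in white adipose, 128 in tibialis anterior, 70 in heart and 22 in brown adipose when each was taken in turn. With a single library behind each tissue, none of these differences could be set against replicates. In 3 wild-type libraries of cold-exposed brown fat the range of log2(FPKM + 1) had a median of 0.28 over 10845 genes and reached 2 in 46 of them (percent called 0.424), and in inguinal fat it had a median of 0.29 over 12137 genes and reached 2 in 100 (percent called 0.824). Just inside the threshold were Iglv2 and Dcbld1 (both 2.00) and Asah2 (2.01), and just outside it B4galnt1 and Tsta3 (both 2.00 after rounding, under 2 before) and H2az1 (1.99).

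**Figure D1:**
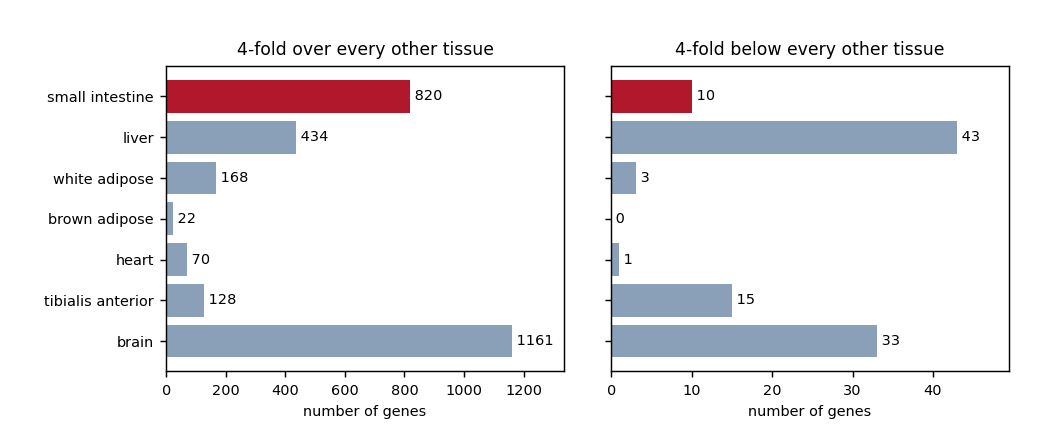
Number of genes at least 4-fold over every other tissue (left) and at least 4-fold below every other tissue (right) on log2(FPKM + 1), for each of 7 tissues with 1 sample each. Small intestine had 820 genes in the left panel, fewer than the 1161 of brain and more than the 434 of liver, and 10 in the right panel.

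The 820 genes together held 23.2% of the summed FPKM of small intestine, and between 0.0715% in tibialis anterior and 0.492% in white adipose elsewhere. For 138 of them the other 6 tissues are all listed at 0, and for 436 all 6 were under 1 FPKM. In small intestine 217 had at least 100 FPKM, 518 had between 10 and 100, and 85 had less, with a median of 37.9. The tissue that came next was white adipose for 332 genes, liver for 124, brain for 119, brown adipose for 62, heart for 28 and tibialis anterior for 17. At the head of the ranking were Akp3, Reg1, Reg3b, Defa24 and Lypd8, followed by Defa30, Reg3g, Rbp2, Krt20 and Itln1, all between 9.74 and 11.17 over the next tissue on log2(FPKM + 1). These 10 encode an alkaline phosphatase, lectins and other antimicrobial proteins, defensins, a vitamin A carrier and a keratin of differentiated epithelium, and they are described with their groups. Lists of marker genes and pathways are given below by how many members were called, with the number tested where some were not, beside the 5.58% of all genes tested, and by the median difference over the next tissue of the listed genes, which was -0.75 over all genes tested. Listed genes at or near 0 in the other 6 tissues passed the filter only through small intestine. In lists rich in such genes (Paneth, goblet, epithelium and brush border enzymes among them) the share called largely follows from the filter. Such a share cannot be set against the 5.58%. Over all genes tested, 4104 of 14692 had their highest value in small intestine at any difference. This is the background for counts of members that were highest there without a threshold. FPKM is already scaled to length, so levels of different genes can be set side by side.

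**Figure D2:**
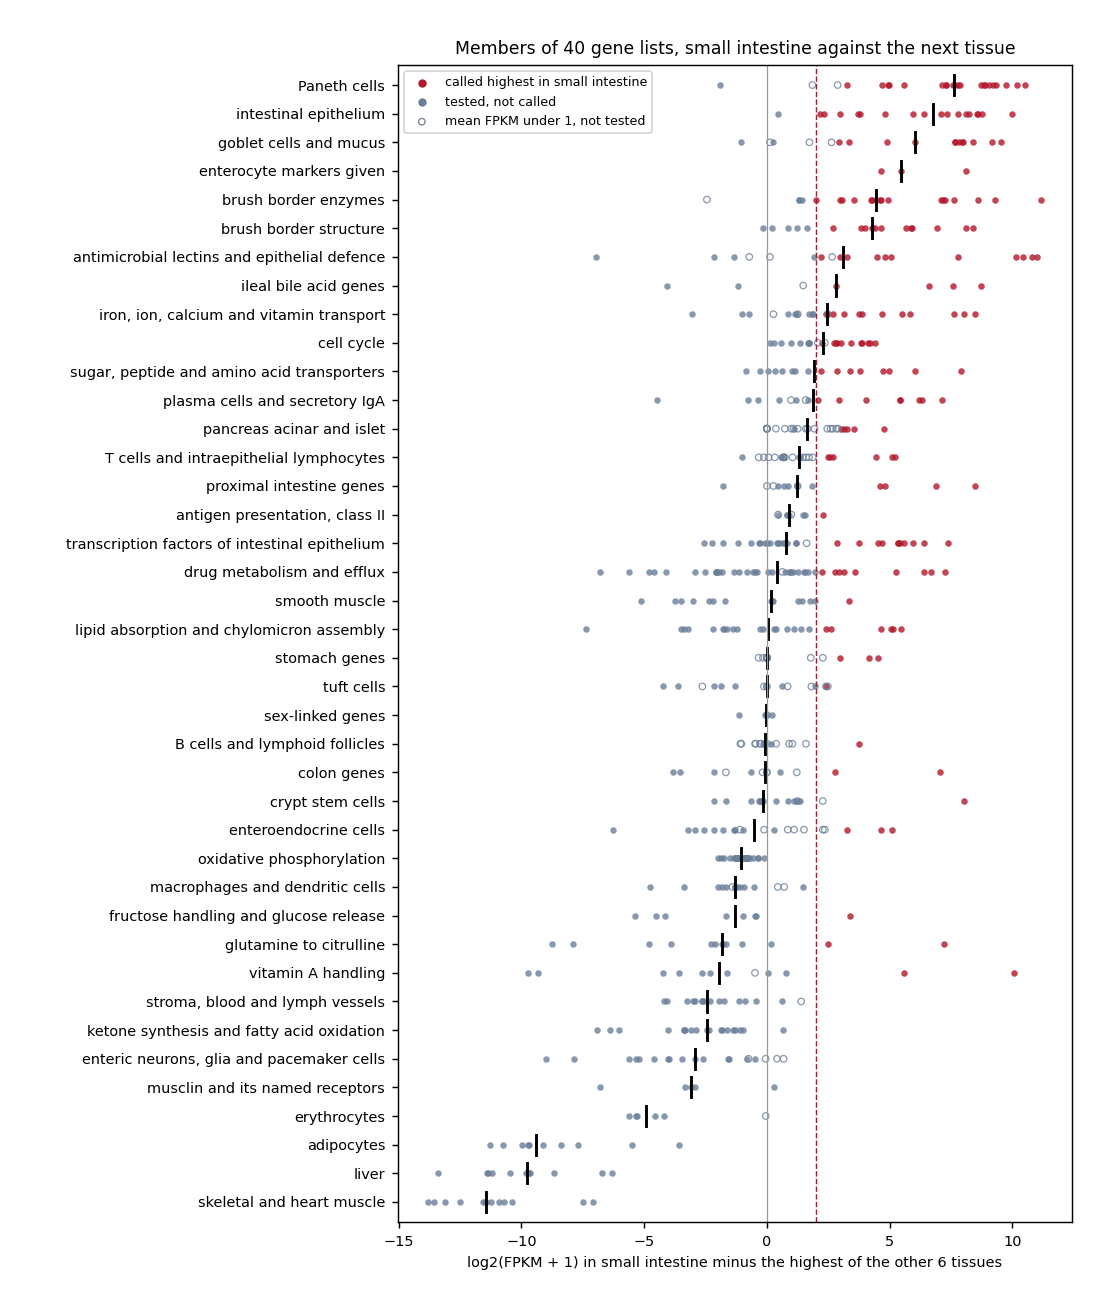
Difference in log2(FPKM + 1) between small intestine and the highest of the other 6 tissues for every gene of 40 lists, with 1 sample per tissue. Points are genes, filled in red where called at 4-fold and open where the mean was under 1 FPKM and the gene was not tested, black bars are list medians, and the dashed line marks the threshold. Paneth, epithelial and goblet lists have the highest medians (7.62, 6.76 and 6.04) and the lists of adipocytes, liver and striated muscle the lowest (-9.40, -9.78 and -11.45).

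Of 18 genes of intestinal epithelium 17 were called highest, with a median difference of 6.76. Epcam, an adhesion molecule of epithelial cells, had 632 FPKM in small intestine, 0.691 in white adipose, 0.364 in liver and less than 0.1 in the other 4 tissues. Krt20, a keratin of differentiated villus cells, had 1183 in small intestine, 0.157 in white adipose and 0.119 in brain, with the other 4 listed at 0. Lgals2, a galectin, had 2587 in small intestine, 5.74 in white adipose and 0.0942 in liver, and is listed at 0 in the other 4. Small intestine stood far above every other tissue for each of the 3 genes. Cdh17, the cadherin of intestinal epithelium, had 303 FPKM, Gpa33, a surface antigen of this epithelium, 136.7 and Prap1 429.6, and all 3 are listed at 0 in the other 6 tissues. The member that was not called was Krt18, the partner of keratin 8 in simple epithelia, with 180.1 FPKM in small intestine and 133 in liver. Liver also had 110.1 FPKM of Krt8 against 1465 in small intestine, so liver came next for both keratins, and the other 5 tissues had less than 5 FPKM of either.

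Among 17 genes of brush border structure 12 were called, with a median difference of 4.30, and 16 had their highest value in small intestine. Myo1a, the myosin that ties the actin core of the microvillus to its membrane, had 402 FPKM in small intestine, 0.2003 in brain, and less than 0.1 in the other 5 tissues. Cdhr2, a protocadherin of the links between microvillus tips, had 147 in small intestine, 0.199 in white adipose and 0.0569 in brain, with the other 4 listed at 0. Ezr, which anchors actin to the membrane, had 550.3 in small intestine against 33.3 in white adipose, 29.4 in heart, 27.3 in brain and under 5 elsewhere. Ezr was therefore widely present and highest in small intestine, whereas Myo1a and Cdhr2 were nearly limited to it. Members of the same links, Cdhr5 (358 FPKM), Ush1c (163), Myo7b (60.9) and Calml4 (255), were each called. Liver came within 4-fold for 3 members with roles in scaffolding, with Slc9a3r1 at 499 FPKM in small intestine and 161 in liver, Anks4b at 80.5 and 43.8, and Pdzk1, whose exons overlap those of another gene, at 36.8 and 32.2. Cobl, an actin nucleator, was the exception in rank, with 35.8 FPKM in small intestine and 40.5 in tibialis anterior.

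The digestive enzymes of the brush border gave 17 called genes of 21, of which 20 were tested, with a median difference of 4.46. Akp3, an intestinal alkaline phosphatase, had 2373 FPKM in small intestine and 0.0300 in liver, and is listed at 0 in the other 5 tissues. Its difference of 11.17 was the largest of all 14692 genes tested. Alpi, a related phosphatase, had 639.7 FPKM in small intestine, 0.0239 in liver and 0 in the others. Sis (sucrase-isomaltase), which splits sucrose and starch fragments, had 394.5 in small intestine and less than 0.1 in every other tissue. Lct, the lactase of milk sugar, was lower, with 25.7 in small intestine and less than 0.1 elsewhere, and Treh, the trehalase, had 39.1 against 1.09 in liver. For these sugar-splitting enzymes the other tissues lay near 1 FPKM or below, and the exception was Mgam, maltase-glucoamylase, with 165 FPKM in small intestine and 13.02 in liver. Among peptidases Anpep, aminopeptidase N, had 1415 FPKM in small intestine, 46.0 in liver and 19.7 in white adipose. Tmprss15, the enteropeptidase that activates trypsinogen, had 20.9 FPKM and Enpp7, which cleaves sphingomyelin, 17.8, and both are listed at 0 in the other 6. Ace, Dpp4 and Mme, peptidases of many tissues, were highest in small intestine without reaching 4-fold (differences 1.30, 1.42 and 1.31), and Folh1, a folate hydrolase, is listed at 0 in small intestine and had 4.44 FPKM in white adipose.

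Because these enzymes were nearly limited to small intestine, the 100 bases upstream of the start of Sis, Lct and Alpi are shown, from the RefSeq annotation of GRCm38.p6, 5′ to 3′ on the strand of the gene. Capitals mark matches to short letter strings that were searched on both strands. TATAAA stands for the box bound by the general initiation machinery, and CATAAA for the homeobox factors of the CDX family. The letters searched for zinc finger factors of the GATA family were AGATAA. For the nuclear receptor HNF4 the letters were CAAAGTCC. Sis lies at chr3:72967864-72967963, Lct at chr1:128328319-128328418 and Alpi at chr1:87101607-87101706, all on the minus strand.
Sis: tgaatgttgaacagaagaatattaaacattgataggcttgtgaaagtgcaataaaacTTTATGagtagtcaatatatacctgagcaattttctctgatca
Lct: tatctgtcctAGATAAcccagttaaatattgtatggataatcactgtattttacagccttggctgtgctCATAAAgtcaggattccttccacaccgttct
Alpi: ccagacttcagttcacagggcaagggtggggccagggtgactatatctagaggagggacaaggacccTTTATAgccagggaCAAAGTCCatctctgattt
Sis holds the CDX letters on the reverse strand, beginning 43 bases before the start, and Lct holds them 31 bases before it, with GATA letters 90 bases before. Alpi has the TATA letters on the reverse strand 33 bases before the start and the HNF4 letters 19 bases before it. In the 250 bases upstream, CAAAGTCC was present in 4.64% of 582 promoters of genes called highest in small intestine, in 1.38% of 14163 promoters of genes tested and in 1.20% of all 32851 promoters. The same shares were 15.6%, 7.31% and 12.4% for TATAAA, 12.5%, 6.24% and 9.99% for AGATAA, and 9.45%, 6.32% and 10.8% for CATAAA. Base composition differed too, with a median GC content of 55.2% in the 582 promoters, 59.2% over genes tested and 52.4% over all. Between 50% and 55% GC, CAAAGTCC was in 6.78% of 118 promoters of called genes and 1.45% of 2137 of other genes tested, while for CATAAA the shares were 14.4% and 8.38%. In promoters richer in GC the shares for CAAAGTCC lay closer, 1.69% of 118 against 1.35% of 2374 between 55% and 60% and 1.72% of 174 against 0.887% of 6650 from 60% up. Over 6 classes of GC content the share was higher among called genes in 6 for CAAAGTCC and for TATAAA, in 5 for AGATAA and in 3 for CATAAA. A match states that the letters are there and not that a factor binds, and near-identical gene copies count as separate promoters. The promoters printed are ones with a match, whereas Fabp2, Apoa4 and Apoa1 had none of these strings in 250 upstream bases and Muc2 had none in 100.

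Of 16 transporters for sugars, peptides and amino acids 8 were called, with a median difference of 1.94, and 14 were highest in small intestine. Slc5a1, the sodium-glucose cotransporter of the brush border, had 366 FPKM in small intestine, 0.517 in liver, 0.2197 in heart and less than 0.1 in the other 4. Slc15a1, the carrier of di- and tripeptides, had 63.8 in small intestine and is listed at 0 in the other 6. The neutral amino acid carrier Slc6a19 had 37.1 and the cystine carrier Slc7a9 31.0 FPKM, each with less than 0.2 elsewhere. All 4 act on the luminal side, and none had an appreciable level in another tissue. On the basolateral side Slc7a7, a carrier of cationic amino acids whose exons overlap Oxa1l, had 44.6 FPKM in small intestine and 2.31 in white adipose. By contrast Slc2a2, the basolateral glucose carrier, was higher in liver (88.2 FPKM) than in small intestine (48.7), and Slc16a10 had 8.20 in small intestine and 10.3 in liver.

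Transport of ions, iron, calcium and vitamins gave 12 called genes of 24, of which 21 were tested, with a median of 2.44. S100g, the calcium-binding protein of enterocytes that responds to vitamin D, had 403 FPKM in small intestine and 0.121 in brain and is listed at 0 in the other 5. Guca2b and Guca2a, the peptides uroguanylin and guanylin, had 260.0 and 195 FPKM with the other 6 tissues at 0, and their receptor Gucy2c had 72.2 with 0.272 in brain and 0.0557 in liver. Hormone and receptor of this fluid-secretion pathway were thus both highest in small intestine, as was Cftr, the chloride channel it opens (16.2 FPKM, next 0.268 in brain). The exchangers Slc26a3 (56.6 FPKM), Slc26a6 (52.0) and Slc9a3 (37.2) were called as well. Iron genes were highest in small intestine but within 4-fold of another tissue. Slc11a2, the ferrous iron importer, had 30.1 FPKM against 7.64 in brain, Slc40a1 (ferroportin), the exporter, 61.6 against 25.9 in liver, and Heph, its ferroxidase, 41.1 against 22.1 in white adipose. Trpv6, a calcium channel of the proximal intestine, had only 0.499 FPKM.

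Lipid absorption divided between genes that small intestine held nearly alone and genes it shared with liver. Of 24 genes 6 were called and 12 were highest in small intestine, with a median difference of 0.07. Mogat2, the acyltransferase that rebuilds triglyceride from monoglyceride in enterocytes, had 72.8 FPKM in small intestine and 1.22 in white adipose, and is listed at 0 in the other 5. Npc1l1, the importer of dietary cholesterol, had 38.2 in small intestine, 0.127 in heart and less than 0.1 in the other 5. Mttp, which loads lipid onto apolipoprotein B, had 412 in small intestine, 77.1 in liver and under 4 in the others. Mogat2 and Npc1l1 were thus nearly limited to small intestine, whereas Mttp had liver as a distant second tissue. Apob, the structural protein of chylomicrons and VLDL, was higher in liver (184 FPKM) than in small intestine (53.7), and so were Apoa1 (5485 and 2079), Apoc3 (583 and 61.7) and Fabp1 (6259 and 1813). Apoc2 had 177 FPKM in small intestine and 146 in liver, and the sterol exporter partners Abcg5 and Abcg8, neighbours whose exons overlap, had 31.2 and 19.5 in small intestine and 24.2 and 21.6 in liver. Apoa2, an apolipoprotein of high-density lipoprotein with 5873 FPKM in liver, is listed at exactly 0 in small intestine, 1 of 2 genes at 0 there with at least 1 FPKM in all 6 other tissues. The other was Abcb4, a phospholipid exporter, and both were looked up after the counts were known, with the number of reads behind a 0 not stated. Cd36, a fatty acid carrier, was low in small intestine, at 4.56 FPKM against 906 in white adipose and 8.79 in liver.

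**Figure D3:**
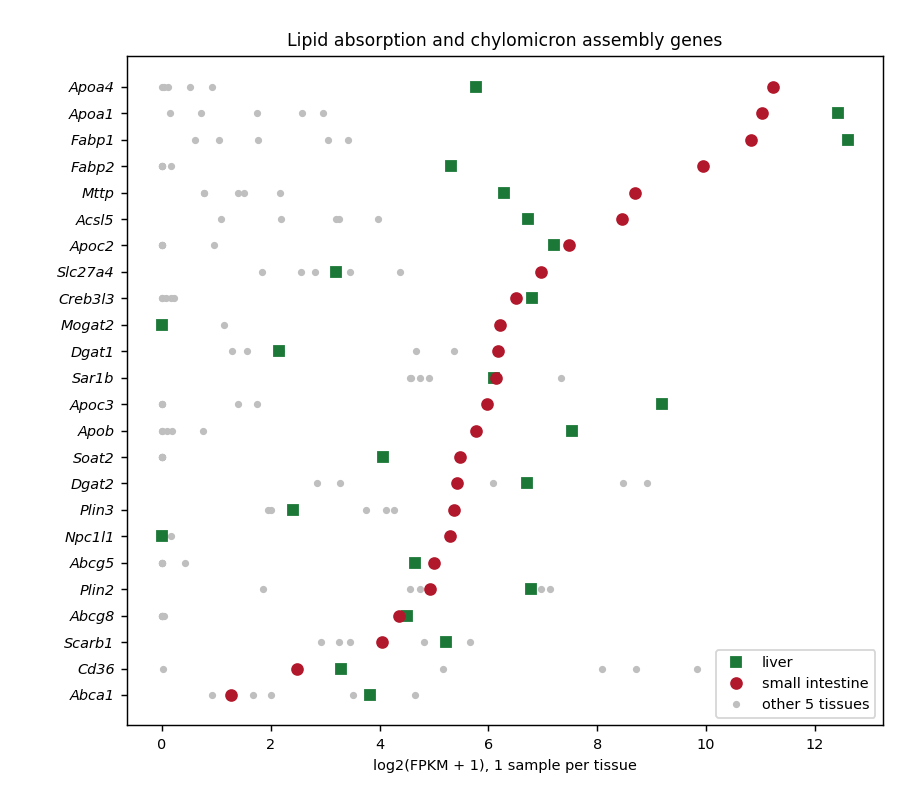
log2(FPKM + 1) of 24 genes of lipid absorption and chylomicron assembly in small intestine (red circles), liver (green squares) and the other 5 tissues (small grey points), 1 sample per tissue. Apoa4, Fabp2, Mogat2 and Npc1l1 lie well to the right in small intestine, Apoc2, Abcg5 and Abcg8 nearly coincide in both organs, and Apoa1, Fabp1, Apob and Apoc3 lie further right in liver.

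Genes that differ along the gut bear on which stretch the sample held. Of 7 genes of ileal bile acid handling 6 were tested and 4 called, with a median difference of 2.81. Fabp6, the ileal bile acid binding protein, had 209 FPKM in small intestine and 0.103 in brown adipose, with the other 5 tissues listed at 0. Slc10a2, the apical bile acid carrier, had 71.5 in small intestine and 9.31 in liver, and the basolateral carrier subunits Slc51b and Slc51a (whose exons overlap Pcyt1a) had 423 and 97.4 FPKM with liver at 0. Fgf15, the ileal hormone induced by bile acids, had only 1.79 FPKM, with the other 6 listed at 0. Of 13 genes typical of the proximal intestine, with a median of 1.22, 10 were tested and 4 called, S100g, Adh6a (119 FPKM), Pdx1 (26.8) and Lct, and the duodenal iron reductase Cybrd1 had 3.56. Gata4, a factor of duodenum and jejunum that is low in ileum, had 38.5 FPKM in small intestine and 23.1 in heart. Markers of both ends of the small intestine were therefore present in the same library. Of 12 colon genes, 7 of them tested and with a median of -0.09, B4galnt2 (191 FPKM) and Slc37a2 (23.8) were called, while Car1, Hoxb13 and Hoxd13 are listed at 0 and Aqp8 had 0.145. Of 13 stomach genes found, 3 of them tested and with a median of 0, Muc6 (22.6 FPKM), Tff2 (17.1) and Gkn3 (17.7) were called, the first pair being products of mucous glands in stomach and of Brunner's glands in duodenum, and 7 of 13 are listed at 0, among them Muc5ac, Tff1 and the acid pump subunit Atp4b. The stomach genes summed to at most 1.61 FPKM in any other tissue. Those called thus passed the filter only through small intestine, and their calls follow from it.

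Vitamin A handling had 2 of 12 genes called, with 11 tested, a median difference of -1.97 and 8 that were higher in another tissue. Rbp2, the retinol binding protein of enterocytes, had 1137 FPKM in small intestine, 0.0729 in brain and 0.0692 in liver, and is listed at 0 in the other 4. Isx, a homeobox factor that represses carotenoid uptake genes, had 46.4 in small intestine and 0 in the other 6. Bco1, the carotenoid cleaving enzyme that Isx represses, had 1.153 in small intestine and 2.01 in liver. Small intestine thus held the intracellular carrier, whereas the plasma carriers Rbp4 (2.20 FPKM, liver 2033) and Ttr (2.39, liver 2882) were low in it. The promoter of Rbp2, chr9:98490437-98490536 on the plus strand, is shown because it carries TATA letters 38 and 15 bases before the start and GATA letters 43 bases before, where the GATA match shares 1 base with the TATA match next to it. HNF4 letters lie further out, 133 bases before the start.
Rbp2: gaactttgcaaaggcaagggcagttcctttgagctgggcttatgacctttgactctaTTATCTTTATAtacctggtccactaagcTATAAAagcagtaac

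Sugar handling after uptake was shared with liver. Of 8 genes of fructose handling and glucose release the median difference was -1.31 and only Slc2a5, the fructose carrier, was called, with 44.2 FPKM in small intestine, 3.31 in liver and 1.66 in brain. Khk and Tkfc, kinases of fructose breakdown, were high in both organs and higher in liver, Khk at 70.0 FPKM in small intestine and 95.2 in liver and Tkfc, whose exons overlap Ddb1, at 111 and 153. Enzymes of glucose release were low in small intestine, with G6pc at 5.08 FPKM against 108 in liver and Pck1 at 21.1 against 604 in liver and 919.9 in brown adipose.

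Small intestine turns glutamine into citrulline, which the kidney makes into arginine. Of 13 genes 2 were called, with a median difference of -1.82. Aldh18a1, which makes the proline and ornithine precursor from glutamate, had 27.2 FPKM in small intestine, 4.06 in brain and 0.0633 in liver. The steps to citrulline were shared with liver, Cps1 at 166 FPKM in small intestine and 568 in liver, Otc at 54.1 and 176 and Nags at 15.8 and 13.97. After citrulline the organs differed, since Ass1 and Asl, which make arginine from it, had 4.92 and 11.1 FPKM in small intestine and 1427 and 181 in liver.

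Enzymes and pumps of drug metabolism gave 9 called genes of 40, of which 39 were tested, with a median difference of 0.41, and 22 were highest in small intestine. The number called was 28 without liver among the other tissues and 15 with a 2-fold threshold. Gsta1, a glutathione transferase, had 667 FPKM in small intestine, 5.55 in liver and 3.10 in heart, with the other 4 at 0. Cyp2c65 and Cyp2c66, cytochromes of the intestine, had 206 and 83.6 FPKM and no value above 0.4 elsewhere. Abcb1a, the efflux pump P-glycoprotein, had 107 in small intestine, 11.1 in white adipose and 9.39 in brain. These were the intestinal members, with liver far lower. The reverse held for Cyp3a11 (3463 FPKM in liver, 458 in small intestine), Cyp2c29 (1066 and 8.48) and Ugt2b5 (262 and 8.40). Ugt2b34 had nearly the same level in both, 355.5 and 311. Summed over the 40 genes, small intestine had 4162 FPKM and liver 8330.5, against at most 342 in the other 5.

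Goblet cell and mucus genes included 12 called of 17, of which 14 were tested, with a median difference of 6.04. Muc2, the gel-forming mucin of the gut, had 715 FPKM in small intestine, 2.18 in white adipose, 1.13 in brain, under 0.3 in brown adipose and heart, and 0 in liver and tibialis anterior. Muc13, a membrane mucin of enterocytes and goblet cells, had 946 in small intestine, 0.275 in brain and 0.0911 in white adipose, with the others at 0. Agr2, the disulfide isomerase needed for mucin folding, had 251 and Zg16, a lectin of the mucus, 333 FPKM, and both are listed at 0 in the other 6. Small intestine thus had by far the highest level of these mucins, with a low level of Muc2 in white adipose and brain, and it was the only tissue with Agr2 and Zg16. Tff3, the trefoil peptide of goblet cells, had 65.0 FPKM, Clca1 201, Fcgbp 206 and Spink4 581. Spdef, the transcription factor of goblet cell maturation, had 5.58 FPKM and 0.0607 in brain, the only other tissue above 0, but its mean over the 7 tissues was too low for it to be tested. Retnlb, which goblet cells make on parasite infection, had 0.0890.

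Paneth cell genes had the highest median of the 40 lists, 7.62, with 21 called of 28 listed, 24 found and 22 tested. Lyz1, the lysozyme of Paneth granules, had 1070.5 FPKM in small intestine, 33.5 in white adipose, 2.07 in brown adipose and less than 0.4 in the others. Defa24, an alpha-defensin that kills bacteria in the crypt, had 1627.5 in small intestine and 0.132 in liver and is listed at 0 in the other 5. Itln1, a lectin for microbial sugars, had 903 in small intestine and 0.0539 in white adipose and 0 elsewhere. Mmp7, the protease that activates mouse alpha-defensins, had 62.7 in small intestine and 0.342 in white adipose. Precursor and activating protease were therefore present together in small intestine and virtually absent elsewhere. Nupr1, a stress factor on the list, was the exception, with 33.5 FPKM in small intestine and 129 in white adipose. Among all genes named Defa, a family gathered after the values were seen, all 23 tested of 28 in the table were called. The 28 summed to 9278 FPKM in small intestine and at most 0.132 in any other tissue. With so little elsewhere, a Defa gene passed the filter only through small intestine, so the share called was set by the filter. The same holds for the Defa genes on the Paneth list. Defa sequences are closely similar, so the values of single members are uncertain. On chromosome 8 the tested genes from Defa21 to Defa24 form an unbroken run of 24 called neighbours (chr8:21025545-21735471).

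Antimicrobial lectins and epithelial defence genes gave 11 called of 18, of which 15 were tested, with a median difference of 3.11. Reg3g, a lectin that kills Gram-positive bacteria, had 1287 FPKM in small intestine and 0.142 in liver, with the other 5 at 0. Reg3b had 2155 in small intestine, 0.203 in white adipose and 0.0827 in brown adipose, and Reg1 had 2204 and 0.0645 in brain. Lypd8, which coats flagellated bacteria, had 1577 in small intestine and less than 0.2 in every other tissue. These 4 were among the 20 largest differences of all genes, and other tissues showed next to none of them. Ang4, a ribonuclease of Paneth cells, had 220.2 FPKM with 0 in the other 6, and Duox2 and its maturation factor Duoxa2, which make hydrogen peroxide at the surface, had 36.1 and 27.4. Acute-phase genes went the other way, with Saa1 at 18.1 FPKM in small intestine and 84.9 in liver, Saa2 listed at 0 and 122 in liver, and Lcn2 at 1.55 and 5.37. Reg3b, Reg3a, Reg1 and Reg3g are neighbours among the tested genes of chromosome 6 (chr6:78370657-78468872), all 4 called, with a sum of 5655 FPKM in small intestine and at most 0.203 elsewhere. The upstream bases of Reg3b (chr6:78370785-78370884, plus strand) and Reg3g (chr6:78468875-78468974, minus strand) are shown since both genes were nearly limited to small intestine. Each has TATA letters near its start, 29 and 27 bases before it.
Reg3b: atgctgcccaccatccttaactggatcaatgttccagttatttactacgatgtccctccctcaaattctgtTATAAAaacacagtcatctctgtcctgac
Reg3g: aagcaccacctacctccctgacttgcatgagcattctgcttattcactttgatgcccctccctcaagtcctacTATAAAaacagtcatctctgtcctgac

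Enteroendocrine genes were divided between small intestine and brain. Of 20 genes 13 were tested and 3 called, Gip, Gcg and Sct, and the median difference was -0.54. Gip, the incretin of the upper intestine, had 33.0 FPKM in small intestine and 0 in the other 6, and Gcg, the source of GLP-1, had 23.9 with 0 elsewhere. Sct (secretin) had 12.2 in small intestine and 0.389 in white adipose. Small intestine was the only tissue with more than a trace of these 3 hormones. For granule proteins and neuropeptides brain was higher, with Chgb at 209.8 FPKM in small intestine and 409 in brain, Chga at 75.4 and 185.5, Sst at 23.7 and 109 and Cck at 9.08 and 59.1, and less than 0.4 in each of the other tissues. Ghrl (5.59 FPKM, exons overlapping Gm26982), Pyy (4.13) and the fate factor Neurog3 (1.153) were too low on average to be tested, and Insl5, a hormone of the distal colon, is listed at 0. Tuft cell genes were low, with 9 of 16 tested, 1 called and a median of -0.01. That call was lost with median-ratio scaling and with an 8-fold threshold, and there were 2 calls with libraries rescaled to the same sum, with a pseudocount of 0.1 FPKM and with a 2-fold threshold. The tuft cell channel Trpm5 had 2.51 FPKM (overlapping Tssc4), the factor Pou2f3 1.13, and the cytokine Il25 and taste transducers Gnat3 and Gng13 are listed at 0. In bulk RNA, few cells of a type and little RNA per cell cannot be told apart.

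Crypt stem cell genes gave 1 called gene of 17, of which 15 were tested, with a median of -0.16, and 8 had their highest value in small intestine. Olfm4, a secreted protein of crypt base cells, had 318 FPKM in small intestine, 0.240 in brain, 0.0398 in liver and 0 in the other 4. Lgr5, the receptor that marks crypt stem cells, had 3.60 in small intestine, 0.936 in brain and 0.7999 in liver, with the other 4 at 0. Ascl2, a stem cell factor, had 4.39 in small intestine and 0.116 in brain. These 3 were highest in small intestine, with Lgr5 and Ascl2 too low on average to be tested. Axin2, a target of Wnt signalling, had 26.8 FPKM in small intestine and 32.3 in white adipose, and Sox9 had 18.2 in small intestine and 20.8 in brain. All 22 cell cycle genes listed had their highest value in small intestine and 11 of the 20 tested were called, with a median difference of 2.30. Mki67, the proliferation antigen, had 67.8 FPKM in small intestine, 3.76 in white adipose, 1.09 in brown adipose and less than 1 in the other 4. Top2a, a topoisomerase of dividing cells, had 59.4 in small intestine, 2.45 in white adipose, 1.05 in liver and less than 1 in the other 4. Differences over the next tissue on log2(FPKM + 1) ran from 0.13 for Mcm7 (overlapping Cops6) to 4.39 for Ube2c, with Pcna at 0.99.

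Transcription factors of the epithelium gave 11 called of 30, of which 29 were tested, with a median of 0.77, and 22 were highest in small intestine. Cdx2 and Cdx1, the homeobox factors that set intestinal identity, had 39.8 and 24.7 FPKM in small intestine and are listed at 0 in the other 6. Hnf4g, a nuclear receptor of enterocytes, had 166 in small intestine and 0 elsewhere, whereas its relative Hnf4a had 175 in small intestine and 109 in liver. Vdr, the vitamin D receptor, had 86.6 in small intestine and less than 0.5 in every other tissue. Factors limited to intestine and factors shared with liver could thus be separated, the latter including Nr1i2 (27.5 FPKM in small intestine and 28.9 in liver), Foxa1 (10.5 and 9.50) and Creb3l3 (90.2 and 111). Elf3 (119.8 FPKM), Klf5 (109.8), Myb (94.0) and Ehf (85.1) were called too, as was Atoh1, the fate factor of secretory cells (8.35). Gata4 and Gata6 had heart as the next tissue, at 23.1 and 6.36 FPKM against 38.5 and 15.8. On chromosome 5 Pdx1 and Cdx2 stand in a run of 4 called neighbours with Plut and Gm27033, all at 0 outside small intestine.

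**Figure D4:**
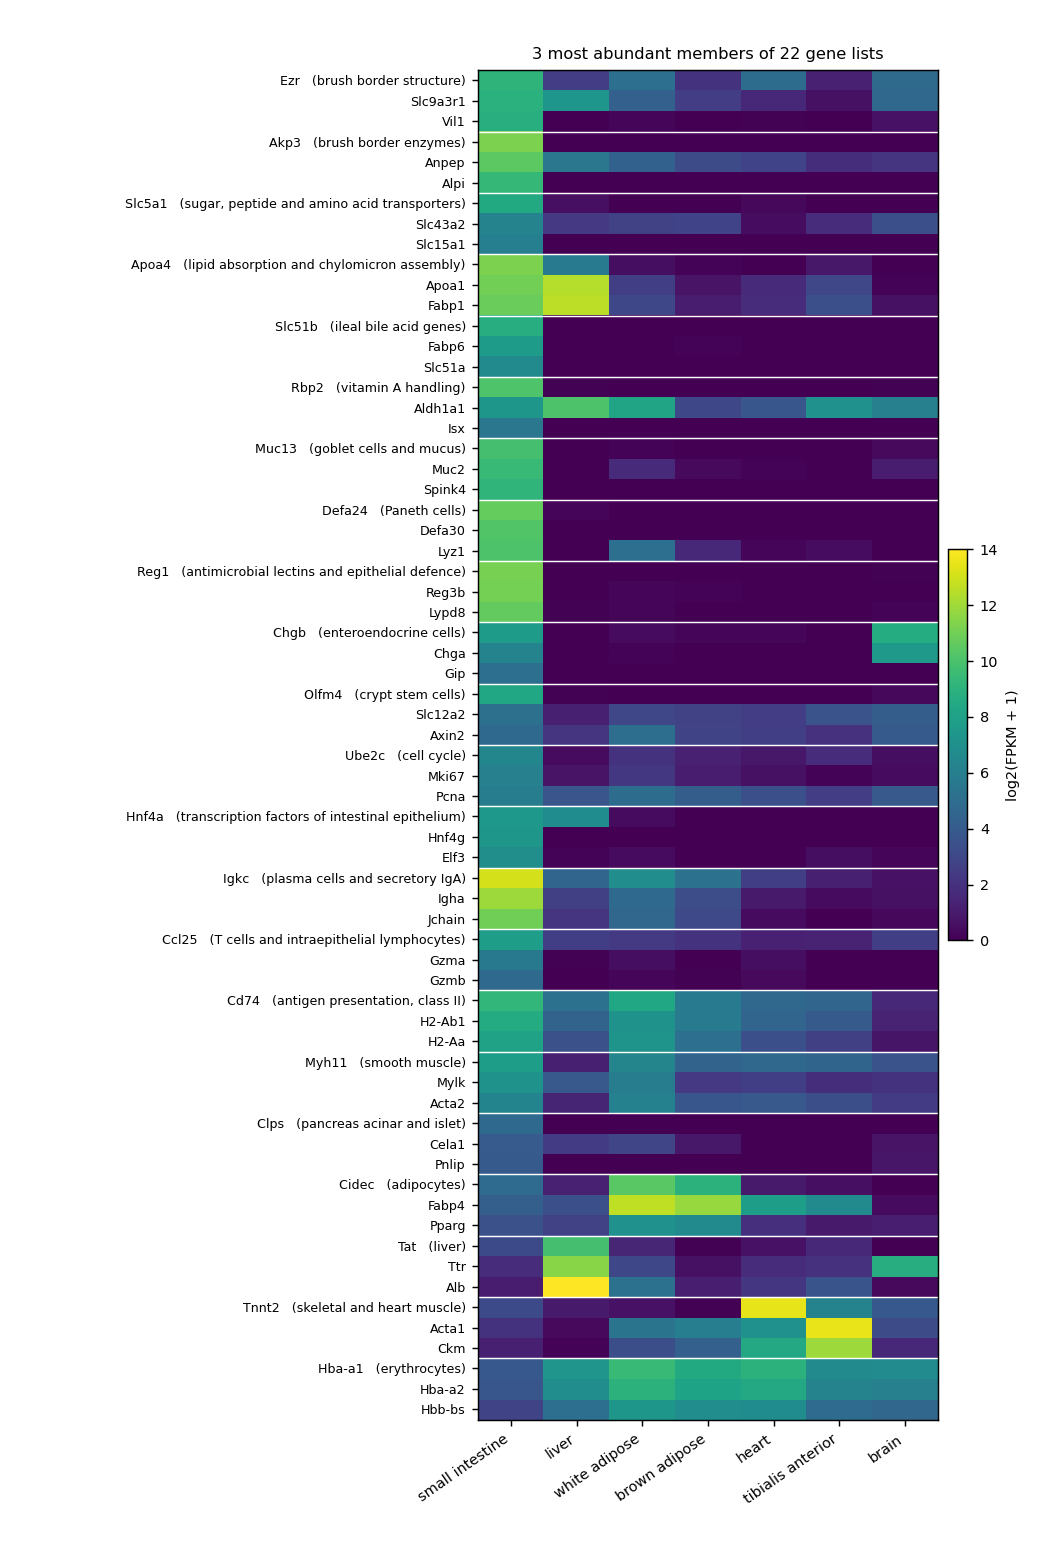
log2(FPKM + 1) of the 3 most abundant genes of small intestine from each of 22 lists, by tissue, with 1 sample per tissue. Akp3, Alpi, Muc13, Defa24 and Reg1 are bright in the small intestine column alone, Igkc, Igha and Jchain are brightest there and fainter in white and brown adipose, Apoa1 and Fabp1 are bright also in liver, Chgb and Chga also in brain, and the adipocyte, liver, striated muscle and erythrocyte genes are dim in small intestine.

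Antibody genes were among the most abundant of the library. Igkc, the constant region of kappa light chains, had 8751 FPKM in small intestine, 117 in white adipose, 36.3 in brown adipose, 22.8 in liver and at most 5.06 in the others. Igha, the heavy chain of IgA, had 3923 in small intestine and 27.1 in white adipose, and Jchain, which joins IgA dimers, had 1966 and 23.6. Pigr, the receptor that carries these dimers across the epithelium, had 1727 in small intestine and 406 in liver and less than 1 in the other 5. Chains, joining protein and epithelial carrier of secretory IgA were thus all highest in small intestine. Other heavy chains were low by comparison, Ighm at 6.74 FPKM in small intestine and 172 in white adipose, Ighg2b at 29.8 and 8.74, and Ighg1 at 5.22 in small intestine and 1.08 in brown adipose. Of the 16 plasma cell genes 14 were tested and 8 called, with a median difference of 1.87, including Mzb1 (19.0 FPKM) and Derl3 (26.6). Counted by annotation class after the values were seen, 161 of 171 immunoglobulin genes tested were called, and immunoglobulin genes summed to 29435 FPKM in small intestine, 5.85% of its total, 689 in white adipose, 142 in brown adipose and at most 53.9 in the others. Of 185 Ighv and 160 Igkv genes in the table, 76 and 75 were tested. Segments low elsewhere passed the filter through small intestine, so the share called largely follows from the filter. Without immunoglobulin genes 659 of 14521 genes, 4.54%, were called. Variable segments resemble each other, so values of single segments are uncertain.

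B cell genes were mostly too low to be tested. Of 15 genes, with a median of -0.09, only 3 were tested, and of these Cd79a, a signalling chain of the B cell receptor, was called (33.0 FPKM, next 1.56 in white adipose), and the defining gene Ms4a1 was under 1 FPKM (0.362). T cell and intraepithelial lymphocyte genes gave 6 called of 23, of which 11 were tested, with 20 highest in small intestine and a median of 1.31. Gzma and Gzmb, granzymes of cytotoxic lymphocytes, had 48.9 and 26.9 FPKM in small intestine and less than 0.5 in every other tissue. Cd3e, a chain of the T cell receptor complex, had 14.6 in small intestine, 1.40 in white adipose and 1.04 in liver. Ccl25, the chemokine with which the epithelium attracts lymphocytes, had 221 in small intestine and less than 5 elsewhere, and its receptor Ccr9, whose exons overlap Slc6a20a, had 2.17. Cytotoxic granule genes and their attractant were thus concentrated in small intestine, while Cd8a (3.64 FPKM), Itgae (5.83) and Trdc (0.463) were low. All 9 genes of class II antigen presentation were highest in small intestine, with 1 called of 7 tested and a median of 0.91, and Cd74 was at 618 FPKM against 328 in white adipose and H2-Ab1 at 387 against 139.5. The regulator Ciita, with exons overlapping Dexi, was the called member, at 2.27 over white adipose, which had 2.11 FPKM. Macrophage genes had no called member among 16, of which 13 were tested, and a median of -1.29, and white adipose exceeded small intestine for Lyz2 (336 and 83.1 FPKM), C1qa (94.8 and 37.7) and Mrc1 (44.2 and 3.36).

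Of the layers beneath the epithelium smooth muscle showed most clearly, while most nerve, stroma and vessel genes were higher in another tissue. Of 16 smooth muscle genes 9 were highest in small intestine, with a median of 0.19, and 1 was called, Actg2, the enteric smooth muscle actin, at 61.1 FPKM in small intestine, 5.12 in white adipose, 0.607 in brown adipose and 0 in the other 4. The number called was 3 with a pseudocount of 0.1 FPKM, 2 with median-ratio scaling and 5 with a 2-fold threshold. Myh11, the smooth muscle myosin, had 226 in small intestine and 82.6 in white adipose, and Acta2 had 79.1 and 69.7. Nerve, glia and pacemaker genes had no called member among 19, of which 15 were tested, and a median of -2.92, and brain dominated the list with a sum of 4858 FPKM against 41.4 in small intestine. Vip, a transmitter of enteric neurons, had 5.45 FPKM in small intestine and 8.10 in brain, and Kit, a receptor of pacemaker cells, had 3.42 and 6.67. Stroma and vessel genes likewise had none called of 16, of which 15 were tested, with a median of -2.44, and summed to 262 FPKM in small intestine against 1492 in white adipose. Plvap, of fenestrated capillaries, was highest in small intestine (95.3 FPKM, white adipose 62.1), and Madcam1, the homing ligand of gut vessels, had 1.63 with 0 elsewhere.

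Markers of neighbouring organs were measured to see what else the sample held. Pancreas genes had 5 called of 24 found, 6 of them tested, with a median of 1.62, and summed to 124 FPKM in small intestine, 6.94 in white adipose, 4.74 in liver, 1.95 in brain, 0.888 in brown adipose, 0.0207 in tibialis anterior and 0 in heart. The most abundant was Clps (colipase), with 26.4 FPKM and 0 in the other 6 tissues, followed by Cela1 (15.2, not called, with 6.48 in white adipose), Pnlip (14.9), Try4 (10.7) and Ctrb1 (8.72), while Ctrc, Ins1 and the acinar factor Ptf1a are listed at 0. Colipase and the trypsins above 0 thus appeared at modest levels in small intestine alone, and the part of attached pancreas was not tested. The called pancreas genes were low elsewhere and passed the filter through small intestine, so their number largely follows from it. Genes of adipocytes, liver and striated muscle had no called member among 10, 12 and 13, and 6, 9 and 9 of them were under 1 FPKM in small intestine. Adipocyte genes summed to 63.3 FPKM in small intestine, 26581 in white adipose, 8679 in brown adipose, 1439 in liver, 1058 in tibialis anterior, 765 in heart and 6.27 in brain. Liver genes summed to 13.4 in small intestine, 42667 in liver, 2054 in white adipose, 425 in brain, 105 in brown adipose, 32.2 in tibialis anterior and 13.6 in heart. Striated muscle genes summed to 15.8 in small intestine, 70930.2 in tibialis anterior, 35365 in heart, 332 in brown adipose, 226 in white adipose, 103 in brain and 2.83 in liver. The most abundant in small intestine were Cidec (29.1 FPKM), Tat (7.74) and Tnnt2 (7.68), and the defining genes Adipoq (0.714), Alb (1.06) and Ckm (1.38) were near or below 1. Small intestine thus held little of these markers, less than white adipose held of liver or striated muscle genes, and what part carry-over between samples had in them was not tested.

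Genes of energy metabolism set small intestine below brown adipose and heart. None of 32 nuclear genes of oxidative phosphorylation was called or highest in small intestine, with a median difference of -1.05. As deposited they summed to 7589.8 FPKM in small intestine, 15132.5 in brown adipose, 10813.5 in heart, 7748 in tibialis anterior and between 3791 and 4864 in the other 3. The place of small intestine turned with the scaling, which was tried for these sums after seeing the data. With libraries rescaled to the same sum it had 15090.5 and tibialis anterior 13305.5, and with median-ratio scaling it had 5401, liver 5447 and tibialis anterior 13294. Mitochondrially encoded genes held 15.7% of its summed FPKM, against 53.8% in brown adipose, 53.6% in heart, 29.2% in tibialis anterior, 21.8% in brain, 19.0% in liver and 13.3% in white adipose. Since FPKM is a share of a library, such large portions lower every other gene of that library. Only symbols beginning with mt- were counted as mitochondrially encoded. Gm10925, which was not counted, had 8058 FPKM in small intestine and 31722 in brown adipose, near mt-Atp6 at 7612 and 32272. Such genes stayed in the scaling without the mitochondrially encoded genes, and whether they carry mitochondrial signal was not tested. The median difference of small intestine over the next tissue across the genes tested, -0.75 as deposited, was -0.97 when every library was rescaled to the same sum, -1.09 with median-ratio scaling and -1.10 without the mitochondrially encoded genes. Against single tissues a difference shifted by between -1.27 against tibialis anterior and 0.18 against white adipose with median-ratio scaling, and between -0.35 against brain and 0.50 against brown adipose with the same sum. Which of 2 tissues is higher thus depends on the scaling where small intestine differs from the other by less than such a shift. Of 19 genes of ketone synthesis and fatty acid oxidation none was called, the median was -2.44, and only Bdh1, which interconverts the ketone bodies, was highest in small intestine (72.0 FPKM, liver 46.0). Cpt1a, the fatty acid gate of mitochondria, had 35.2 FPKM in small intestine and 69.6 in liver. The most abundant transcripts of small intestine were mt-Co1 (16019.5 FPKM), mt-Atp8 (13739.9, overlapping mt-Atp6) and mt-Cytb (13204), and among the leading 20 the nuclear genes of known function were Igkc, Igha, Lgals2, Apoa4, Akp3, Reg1 and Reg3b.

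Only 10 genes were called lowest in small intestine, at least 4-fold below the lowest other tissue (percent called 0.0681). Ndrg2, of the family of N-Myc downstream-regulated genes, had 8.54 FPKM in small intestine, 76.9 in white adipose, 92.4 in brown adipose, 166 in brain, 189.7 in heart, 273 in liver and 447 in tibialis anterior. Its deficit, -3.03, was the largest as deposited, a place that depended on the processing. The deficit of Ppp1r3c was larger with a pseudocount of 0.1 FPKM (-3.58 against -3.16) and with libraries rescaled to the same sum (-2.94 against -2.86). With median-ratio scaling that of Grb14 was larger (-3.17 against -2.80). The alpha-globin genes Hba-a1 and Hba-a2, near-identical copies, had 13.3 and 12.2 FPKM in small intestine and between 67.9 and 698 in the other tissues. The 6 listed erythrocyte genes summed to 35.7 FPKM in small intestine, 212 in brain, 221 in tibialis anterior, 362 in liver, 826 in brown adipose, 1046 in heart and 1486 in white adipose, with Alas2 at 0 in small intestine, and the part of blood left in each sample was not tested. Ppp1r3c, which targets a phosphatase to glycogen, had 0.769 in small intestine and 10.3 or more elsewhere (difference -2.67), and Bnip3, a mitophagy receptor induced by low oxygen, had 11.3 and 49.7 or more (-2.04). The rest were Msrb2 (-2.34), a methionine sulfoxide reductase, Grb14 (-2.33), an adaptor that inhibits insulin receptor signalling, St3gal3 (-2.31), a sialyltransferase, Palmd (-2.29) and Fxyd1 (-2.04), a regulator of the sodium pump. Just outside the threshold were Gm49369 (-1.99) and Smpd1 (-1.85). This count depended on scaling more than that of the highest genes did, and was 23 with each library rescaled to the same sum, 22 with median-ratio scaling, 37 without the mitochondrially encoded genes, 68 with a pseudocount of 0.1 FPKM and 37 without liver.

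Genes high in small intestine and in 1 other tissue were found by asking that the lower of the pair lie 4-fold above the highest of the remaining 5. Liver shared 153 such genes with small intestine (percent called 1.04), brain 76 (percent called 0.517), white adipose 43 (percent called 0.293), heart 6 (percent called 0.0408), tibialis anterior 2 (percent called 0.0136) and brown adipose 0. For scale, heart and tibialis anterior shared 123 and white and brown adipose 68, so the intestine-liver pair had the largest count of the 21 pairs. The leading gene with liver was Apoa1, the main protein of high-density lipoprotein, with 2079 FPKM in small intestine, 5485 in liver and at most 6.81 elsewhere, and Pigr, Ugt2b34 and Fabp1 were also among the leading genes. Of the 153 genes 67 were higher in small intestine, so the sharing ran in both directions. With brain the leading genes were Chgb and Chga, granins of secretory granules, then Ckmt1, a mitochondrial creatine kinase with 769 FPKM in small intestine and 97.1 in brain, Ppp1r1b (159 and 112), a phosphatase inhibitor, and Jakmip1 (51.2 and 116). Small intestine was the higher of the pair for 20 of these 76 genes. With white adipose they were the antibody segments Ighv11-2 and Igkv14-126, the galectin Lgals3 (109 FPKM and 48.9), Lyz1 and Aldh1a3, which makes retinoic acid (30.6 and 15.2). Small intestine was the higher of the pair for 39 of these 43 genes, and 16 were also called highest in small intestine. With heart the 6 were Fblim1, Lmo7, Gata4, Myl7, Dsp and Chmp4c, of which Dsp, a protein of desmosomes, had 68.1 FPKM in small intestine, 225 in heart and 14.9 in liver, and Lmo7 had 121 and 219. With tibialis anterior they were Tspan8, a tetraspanin (164 FPKM and 35.7), and Cd24a, a surface glycoprotein (88.3 and 98.7). The sum of pairs with small intestine, 280, moved to 590 with a pseudocount of 0.1 FPKM and 442 with libraries rescaled to the same sum. The count with liver, 218 and 166 under these and 167 with median-ratio scaling, stayed the largest of those with small intestine. That with white adipose moved from 43 to 154 and 148 and to 11 with median-ratio scaling, and that with brain from 76 to 189, 116 and 47. White adipose exceeded brain with the same sum and also with a 2-fold threshold (325 and 256).

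**Figure D5:**
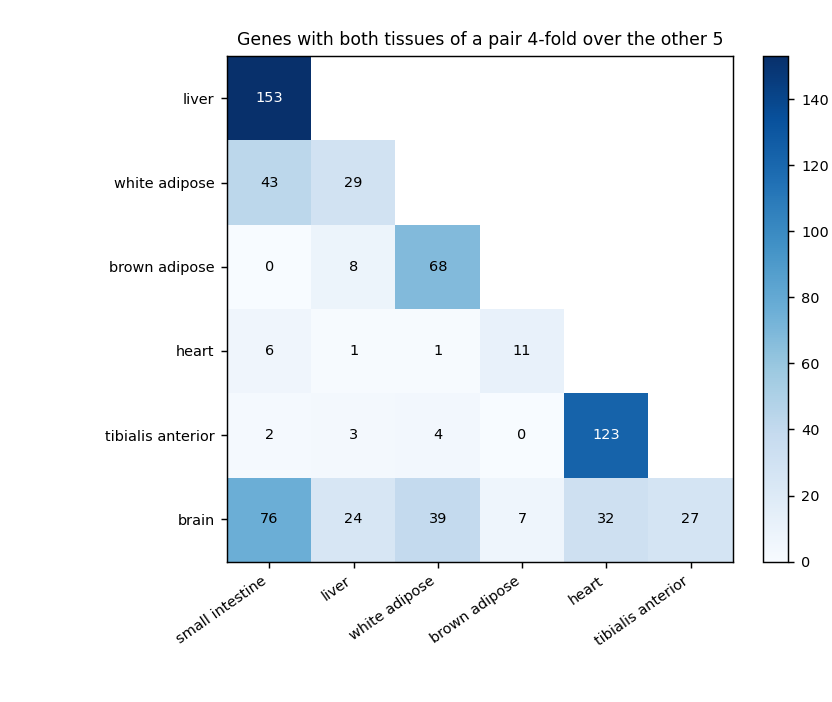
Number of genes for which both tissues of a pair lay at least 4-fold above the highest of the other 5 on log2(FPKM + 1), for all 21 pairs of tissues with 1 sample each. In the column of small intestine the count is 153 with liver, 76 with brain, 43 with white adipose and 6 or fewer with heart, tibialis anterior and brown adipose, beside 123 for heart with tibialis anterior.

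The 820 genes were also placed on the genome (GENCODE positions on GRCm38), a description made after the values were seen. Of them 616, or 75.1%, are protein coding and 150 are immunoglobulin variable segments. Another called gene lay within 100 kb for 42.6% of the 820, against 11.3% of 13868 other genes tested that have a position, and without immunoglobulin genes for 29.0% of 659 against 11.3%. In the order of tested genes 481 stood alone and 233 lay in 22 runs of at least 3 called neighbours. The longest runs were 63 kappa variable segments on chromosome 6, 59 heavy chain segments on chromosome 12 and the 24 defensin neighbours on chromosome 8. Shorter runs held the 4 inflammasome sensors Naip2, Naip5, Naip6 and Naip1 on chromosome 13, whose sum was 76.6 FPKM in small intestine and at most 3.32 elsewhere, Btnl4 and Btnl6, relatives of the butyrophilins, with the pseudogenes Btnl5-ps and Btnl7-ps on chromosome 17 (311 and 0.282), and 4 Clca genes on chromosome 3 (936 and 0.0307). Gsdmc2, Gsdmc3 and Gsdmc4, gasdermins on chromosome 15, summed to 49.1 FPKM in small intestine and 0 elsewhere. Families gathered by name after the values were seen showed 41 of 272 Slc carriers tested called, 7 of 61 Cyp, 7 of 28 Kif, 6 of 7 Btnl, 5 of 7 Muc, 5 of 5 Reg, 5 of 5 Ceacam, 4 of 44 Trim, 1 of 17 Ugt and 0 of 4 Ces2, beside the 5.58% of all genes tested. The table holds 8 Btnl, 13 Muc, 7 Reg and 15 Ceacam genes. Apart from Ceacam1 (98.9 FPKM in liver), the called Btnl, Muc, Reg and Ceacam genes were low elsewhere. They passed the filter through small intestine, so their shares largely follow from it and cannot be set against 5.58%. Members of such families share sequence, and reads may be divided among them in ways the FPKM values do not show.

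Of the receptors listed for Musclin, Tfrc, the transferrin receptor, had 38.4 FPKM in small intestine, 31.3 in brown adipose, 26.0 in brain, 25.3 in tibialis anterior, 11.8 in heart, 11.5 in white adipose and 7.58 in liver. As deposited small intestine was thus the highest for Tfrc, by only 0.29 over brown adipose, and this place depended on the scaling. In scalings tried after seeing the data its difference from the highest other tissue was 0.21 with libraries rescaled to the same sum (brain next), but -0.65 with median-ratio scaling, where tibialis anterior was highest, and -0.0726 without the mitochondrially encoded genes, where brown adipose was. The natriuretic peptide receptors Npr1, Npr2 and Npr3 had 1.51, 2.03 and 0.769 FPKM there, low beside the 195 of Npr3 in white adipose.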

How the data were processed

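The values are FPKM as deposited by the authors. Their processing notes and methods name fastp and Bowtie2 for filtering and unstranded alignment with HISAT2 2.1.0 to the mouse genome. They differ in the version of Bowtie2, given as 2.4.1 in the notes and as an earlier one in the methods, and in the tool behind FPKM, Cuffdiff in the notes and StringTie in the methods, so which tool made the values is not settled. The table of 7 tissues and the wild-type columns of both cold-exposed fat tables were used. The table of inguinal fat also holds the authors' own comparison columns, which were not used. Repeated lines of a gene with identical values were read once, which left 55573 genes by Ensembl ID, 14692 of them with a mean of at least 1 FPKM. A pseudocount of 1 FPKM was added before log2. Named genes are members of the marker and pathway lists, the 25 largest differences, the 20 most abundant genes, the 10 lowest genes and the 5 leading genes shared with each tissue, beside those said to be chosen after their values were seen, such as Chmp4c and the members of runs and families, and genes next to the thresholds. Members and lists were chosen with earlier results of these data known. Positions are from GENCODE vM21 and upstream bases from RefSeq on GRCm38.p6. Alternatives were other pseudocounts, filters, thresholds, scalings and sets of compared tissues. Python 3.11.15 with pandas 2.3.3, numpy 2.4.6, scipy 1.17.1 and matplotlib 3.10.9 was used.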

Additional observations from a re-analysis of the deposited data

How the results depend on the processing

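The count of genes highest in small intestine was 820 and stayed within 1.5 times that under 9 of 12 alternatives, between 578 with an 8-fold threshold and 1024 without liver among the other tissues. It moved to 459 with a mean of at least 5 FPKM, where fewer genes are tested, to 1455 with a 2-fold threshold and to 2032 against the median of the other 6 tissues, both looser by construction. Rescaling each library to the same sum kept 803 of the 820 genes, median-ratio scaling kept 723 and leaving out mitochondrially encoded genes kept 797, and 712 were called under all of these and with a pseudocount of 0.1 FPKM. The count of genes lowest in small intestine was less stable. From 10 it moved to 68 and 125 with pseudocounts of 0.1 and 0.01 FPKM, 23 with libraries rescaled to the same sum, 22 with median-ratio scaling and 37 without mitochondrially encoded genes. It was 37 without liver, 87 and 1 with 2-fold and 8-fold thresholds and 291 against the median of the other tissues, which are looser or stricter by construction, and for the others the cause was not tested. The 280 genes shared with 1 other tissue became 590 with a pseudocount of 0.1 FPKM, 442 with libraries rescaled to the same sum and 960 with a 2-fold threshold, and for the first pair of changes the cause was not tested. Of 40 lists, the number of called members stayed within 1.5 times in 39 with libraries rescaled to the same sum, 38 with median-ratio scaling, 38 with a pseudocount of 0.1 FPKM, 34 with a 2-fold and 34 with an 8-fold threshold, and 32 without liver. Without liver the number rose from 9 to 28 for drug metabolism, 6 to 16 for lipid absorption and 11 to 19 for transcription factors. For fructose handling it rose from 1 to 6, for citrulline from 2 to 5 and for proximal genes from 4 to 7. For vitamin A it rose from 2 to 4 and for crypt stem cells from 1 to 2. An 8-fold threshold lowered it, among others, from 6 to 3 for T cells and 1 to 0 for class II genes. Scalings added after seeing the data turned the sign of Tfrc over the next tissue from 0.29 to -0.65 with median-ratio scaling and -0.0726 without mitochondrially encoded genes, and that of the oxidative phosphorylation sum over tibialis anterior from -0.03 to 0.18 on log2 with libraries rescaled to the same sum. That sum moved the other way with median-ratio scaling, to -1.30, and was at -0.07 without mitochondrially encoded genes.

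Each tissue rests on 1 library, so variation between mice, the stretch of intestine sampled and the handling of a single sample cannot be told apart from tissue. Whether the libraries were made together is not stated. Values are FPKM as deposited, without read counts, so neither counting error nor the number of reads behind a listed 0 is known. Signal from unstranded libraries can fall on overlapping genes, and closely similar copies such as defensins and antibody segments share reads. Protein, cell numbers and location within the tissue were not measured. Differences of lists between small intestine and the other tissues are counts and medians, and no test stands behind them.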
